A study of Mus musculus with 24 samples.

Results

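The transcriptome of M1 bone marrow-derived macrophages (BMDMs) that lacked the dopamine receptor DRD5 was compared with that of M1 WT BMDMs, in cells that had received no dopamine (DA). The comparison took the 6 untreated M1 libraries of the 24 in the series, 3 labelled DRD5 KO and 3 labelled wild type, chosen by the genotype, treatment and cell type that their labels give. Every mouse is labelled C57BL/6 and 10 weeks old, and both groups received LPS at 100 ng/ml together with IFN-γ at 50 ng/ml over 12 h, so the stimulus is common to both sides of the comparison. The methods describe DRD5-/- mice made by CRISPR-Cas9 and marrow of tibia and femur cultured in L929-conditioned medium, and the labels give bone as the tissue, while the growth note of the labels names the colon. No source says whether a replicate number is a mouse or a culture, so the p-values below measure the spread between libraries of a group, which may be technical.

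DRD5 is a D1-type dopamine receptor that couples to Gs and raises cyclic AMP, which acts through protein kinase A and the transcription factor CREB. Without added DA, a difference between the genotypes compares cells that differ in the receptor gene and in whatever else separates the libraries. M1 macrophages are known for nitric oxide synthesis, for the cytokines TNF, IL-6, IL-12 and IL-1β, and for the interferon response, with NF-κB as a main driver of many of these genes.

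Expression was measured as FPKM, the fragments of a transcript scaled by its length and by the mapped fragments of the library. Of 18063 genes, 10040 reached an FPKM of 1 in 3 or more of the 12 M1 libraries and were tested. The FPKM of the 6 libraries summed to between 484350 and 494459, and between 9818 and 9879 genes reached an FPKM of 1. The read depth is unknown, so the precision rests on the spread between libraries. That spread was pooled within the 4 groups of the 12 M1 libraries, DA-treated ones included, and each mean rests on 3 libraries. All 12 genes of a macrophage marker list were above 0 in every library, and their FPKM summed to between 8240 and 8355 in WT and between 7983 and 8391 in DRD5-/- BMDMs. *Csf1r*, the receptor for the macrophage growth factor, read 306.6, 308.0 and 307.6 FPKM in WT and 299.9, 298.8 and 293.8 FPKM in DRD5-/- libraries. *Drd5*, at chromosome 5, 38319509 to 38322523 (GRCm38.p6), was not analysed here in M1 cells, so the genotype could not be checked on its own transcript, and *Drd1*, *Drd3* and *Drd4* lay between 0 and 0.03 FPKM. *Ddx3y*, a Y-linked gene that male cells ordinarily express, lay between 0 and 0.01 FPKM in all 6 libraries although the methods name male mice, and *Xist* was not analysed here.

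Loss of DRD5 in untreated M1 BMDMs went with few differences past the threshold given below. Small shifts were widespread, as 2557 of 10040 tested genes had an unadjusted limma p under 0.05. A set of 13 genes of neutrophils, heart muscle and lung was lower in the DRD5-/- libraries, and 12 of them were below 1 FPKM in every M1 DRD5-/- library. A larger number of macrophage transcripts differed by small amounts, most of them higher in DRD5-/- BMDMs and rich in G and C bases. The genes that define M1 polarization, *Nos2* and *Tnf* among them, did not pass the test. A gene was called by limma on log2(FPKM + 1) when its adjusted p was below 0.001 and its change reached 1.2-fold, the cutoff taken from the methods. By this rule 73 of 10040 genes were higher in DRD5-/- BMDMs (0.727%) and 21 were lower (0.209%). None of the 94 overlapped between the groups, which by itself is common in these data: in 13.8% of tested genes all DRD5-/- libraries lay above all WT libraries, and in 17.2% all lay below. The count was sensitive to single libraries. It was 36 without DRD5-/- library 2, 57 without DRD5-/- library 3, 61 without WT library 1 and 45 without WT library 3, and 71 or 63 without either of the others.

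The falls were led by genes of neutrophil granules and secretions. Of 14 genes on a neutrophil marker list 9 were tested and 6 were called, but 5 of the 9 were below 1 FPKM in every M1 DRD5-/- library and so passed the filter only through WT, which fixes their direction. Of the other 4, which passed in both genotypes, *S100a8* was called. *S100a9*, a subunit of the calcium-binding protein calprotectin, read 10.6, 13.8 and 16.4 FPKM in the WT libraries and 0.41, 0.81 and 0.40 FPKM in the DRD5-/- libraries. Its log2 difference was −3.24 ± 0.20 (SE, n = 3 per group; limma adjusted p = 5.22e-07). *Ngp*, a neutrophil granule protein, read 7.38, 8.67 and 9.46 FPKM in WT and 0.09, 0.04 and 0.17 FPKM in DRD5-/- libraries, a difference of −3.11 ± 0.17 (SE; limma adjusted p = 1.08e-07). Both genes were low in each DRD5-/- library and high in each WT library, with no library in between. *Ltf*, which encodes the iron-binding granule protein lactoferrin, was at 2.10, 2.43 and 2.17 FPKM in WT and 0.02, 0.02 and 0.05 FPKM in DRD5-/- BMDMs. *Camp*, the precursor of the antimicrobial peptide cathelicidin, was at 2.36, 2.78 and 2.55 FPKM in WT and 0.26, 0.17 and 0.35 FPKM in DRD5-/- BMDMs. *Retnlg*, a secreted resistin-like protein, was at 0.88, 1.13 and 1.21 FPKM in WT and listed at 0 in the 3 DRD5-/- libraries (limma adjusted p = 0.000151). *S100a8*, the partner of *S100a9* in calprotectin, differed from the rest of the group in that it stayed well above 0 in both genotypes. It read 22.2, 26.9 and 25.9 FPKM in WT and 13.8, 17.2 and 14.8 FPKM in DRD5-/- libraries, a log2 difference of −0.68 ± 0.08 (SE; limma adjusted p = 0.000137). The summed FPKM of the 14 genes was 132 to 145 in WT and 105 to 111 in DRD5-/- BMDMs, and 2 of the list were at 0 in every WT library and 3 in every DRD5-/- library. The calls of *S100a8* (adjusted p = 0.00116 without WT library 3) and *Retnlg* (adjusted p of 0.00102 to 0.00132 without DRD5-/- library 2, WT library 2 or WT library 3) were lost by limma when those libraries were left out. In a bulk library, fewer cells of a type and less RNA per cell cannot be told apart.

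Genes of the heart sarcomere made up the next set. Of 64 genes written down for striated muscle and heart 58 had values, 12 were tested and 6 were called. These 6 were below 1 FPKM in every M1 DRD5-/- library and passed the filter only through WT, which fixes their direction, and of the other 6 none was called by limma. *Myl2*, the regulatory myosin light chain of the ventricle, read 3, 5.01 and 5.42 FPKM in the WT libraries and was listed at 0 in the 3 DRD5-/- libraries (limma adjusted p = 3.05e-06). *Mb*, the oxygen store myoglobin, read 1.67, 2.57 and 2.88 FPKM in WT and was listed at 0 in DRD5-/- libraries (limma adjusted p = 5.06e-05). *Myl3* (1.06, 1.33 and 1.23 FPKM) and *Myoz2* (1.15, 0.82 and 1.04 FPKM), a myosin light chain and a Z-disc protein, were present in WT and likewise listed at 0 in DRD5-/- libraries. *Actc1*, cardiac actin, fell from 1.43, 2.39 and 2.37 FPKM to 0.03, 0.03 and 0 FPKM (limma adjusted p = 5.16e-06). *Tnnt2*, cardiac troponin T, fell from 1.65, 1.87 and 2.26 FPKM to 0, 0.05 and 0.08 FPKM (limma adjusted p = 5.46e-06). The 58 genes summed to 29.4, 36.2 and 36.9 FPKM in WT and 13.4, 13.6 and 14.9 FPKM in DRD5-/- libraries, with 6 at 0 in every WT library and 20 at 0 in every DRD5-/- library.

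A gene of the lung airway was lower too. *Scgb1a1*, the secretoglobin of airway club cells, read 2.34, 1.70 and 2.04 FPKM in WT and was listed at 0 in the 3 DRD5-/- libraries (limma adjusted p = 6.36e-06). It was at 0 in every M1 DRD5-/- library with or without DA and passed the filter only through WT, which fixes its direction. It is the member called on a list of 10 lung epithelium genes that was written after its value was seen, and the summed FPKM of that list overlapped between the groups (38.4 to 40.1 in WT, 36.3 to 39.6 in DRD5-/-). Genes were also counted by presence, without the test's filter. Of 12110 genes at 0.1 FPKM or more in every WT library, 15 were listed at 0 in every DRD5-/- library (0.124%), and 14 of the 15 were genes of the muscle and heart, neutrophil, lung or red blood cell lists. These lists were written with earlier results of these data known, and the lung list after its values were seen. The share of the 12110 genes on them was not counted, so the 14 describe the genes and are not separate support. Of the 15, 6 are genes already described as called. The rest included *Myh6*, a cardiac myosin heavy chain (0.64, 0.66 and 0.61 FPKM in WT), *Sftpc*, a surfactant protein of lung alveoli (0.84, 0.42 and 0.36 FPKM in WT), and *Hbb-bs*, a beta globin (0.46, 0.15 and 0.67 FPKM in WT). In the other direction, of 12037 genes at 0.1 FPKM or more in every DRD5-/- library 2 were listed at 0 in every WT library (0.0166%), *Apol7e* and *Gm14277*. What brought these transcripts into the WT libraries was not tested.

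**Figure D1:**
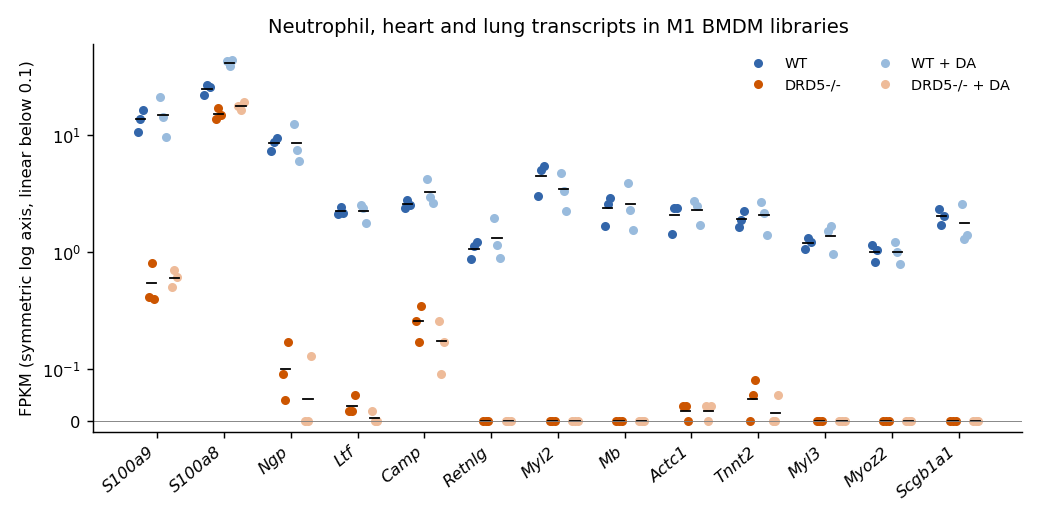
FPKM of 6 neutrophil, 6 heart and 1 lung gene in each M1 library (points) with the group mean (black bar), on a symmetric log axis that is linear below 0.1 FPKM, for untreated and DA-treated WT and DRD5-/- BMDMs. In WT every library lies above 0.7 FPKM for all 13 genes with or without DA, and in DRD5-/- libraries all but *S100a8* lie below 1 FPKM.

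Marker lists of other cells did not give a call, where 0.727% of all tested genes were called higher and 0.209% lower. Smooth muscle, fibroblast, osteoblast, adipocyte, endothelium, T cell, NK cell, dendritic cell, mast cell and basophil, and megakaryocyte and platelet lists had between 1 and 4 tested genes each, and 0 of these were past the threshold. Their largest rise was *Col1a1* of the fibroblast list, at 1.52, 1.65 and 1.48 FPKM in WT and 1.93, 1.73 and 2.05 FPKM in DRD5-/- libraries (limma adjusted p = 0.122). Their largest fall was *Flt1* of the endothelium list, at 1.55, 1.75 and 1.85 FPKM in WT and 1.36, 1.37 and 1.53 FPKM in DRD5-/- libraries (limma adjusted p = 0.188). B cell and erythroid genes were all below the filter, and the 10 erythroid genes summed to 1.68 to 2.71 FPKM in WT and 0.22 to 0.63 FPKM in DRD5-/- BMDMs.

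The remaining differences were set against the base composition of the transcripts. For the 9953 tested genes with a GC content (99.1%), taken from the longest GENCODE transcript, the genotype difference rose with GC content, with Spearman's rho = 0.497 across genes. Genes do not count as independent replicates. The quintile of genes with the lowest GC content (31.0% to 43.7%) had a median log2 difference of −0.07 and the quintile with the highest (55.2% to 71.3%) one of 0.07. Of the 73 higher genes, 52 were in the highest quintile and 2 in the lowest, and their median GC content was 57.3% against 49.4% for all tested genes. Each library carried the shift. The median level of the highest quintile minus that of the lowest, relative to the mean of the 6 libraries, was −0.06, −0.04 and −0.12 on the log2 scale in WT libraries 1 to 3 and 0.04, 0.12 and 0.06 in DRD5-/- libraries 1 to 3, so the groups did not overlap. Genotype and GC-linked shift therefore cannot be told apart by the design, and a further fit was made on values from which the GC and length trends of each library had been taken out.

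**Figure D2:**
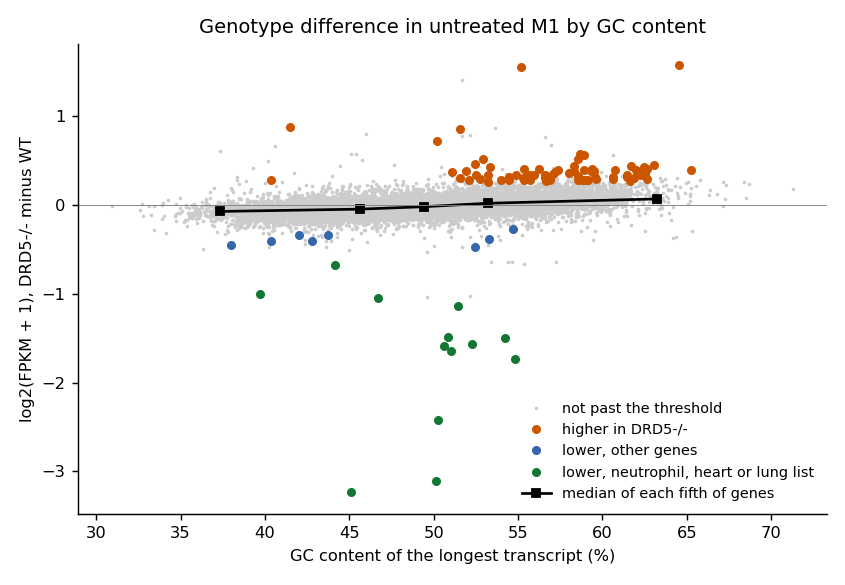
Log2 difference (DRD5-/- minus WT, untreated M1, log2(FPKM + 1)) of each tested gene against the GC content of its longest transcript, with called genes in colour and the median of each quintile of genes as black squares. The higher genes crowd at high GC content, while the neutrophil, heart and lung genes that were lower lie between 39.7% and 54.8%.

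**Figure D3:**
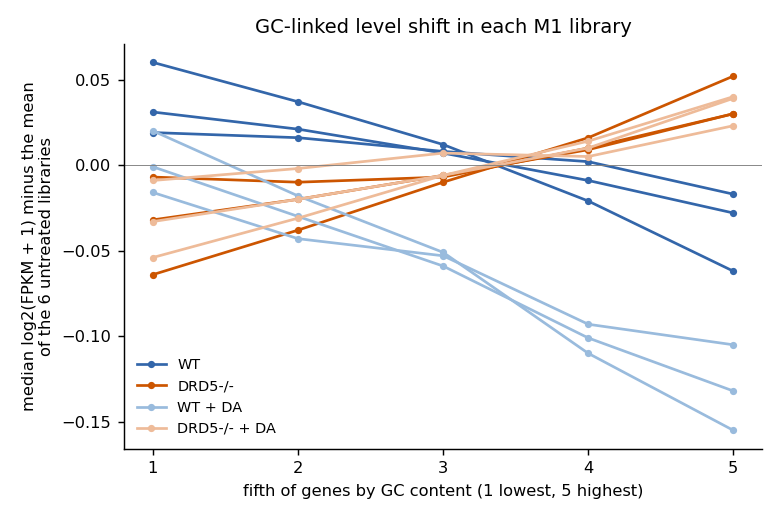
Median log2(FPKM + 1) of each quintile of genes by GC content in each M1 library, as the distance from the mean of the 6 untreated libraries (lines, 1 per library). The 3 untreated WT libraries slope down and the 3 untreated DRD5-/- libraries slope up.

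With the correction 32 genes were higher (0.319%) and 18 lower (0.179%) in DRD5-/- BMDMs, and the correlation with GC content was −0.02. All 13 called genes of the neutrophil, heart and lung lists kept their call. Of these, 12 passed the filter only through WT libraries, which fixes their direction. The 13 falls are also large beside the GC-linked shift, so their kept calls are little test of them. Of the other 81 called genes 31 kept it, 28 higher and 3 lower, and 50 lost it. Among the higher genes, those that kept the call had a median GC content of 56.0% and those that lost it 58.6%. RefSeq promoter windows were matched to 52 of the 73 higher genes and to 8139 tested genes, and the 250 bases before the start site had a median GC content of 62.6% and 60%. The GC box GGGCGG, searched on both strands as GGGCGG or CCGCCC, was found in 55.8% of the matched promoters of higher genes, in 60.1% of those of tested genes and in 32.9% of all promoters in the table. Among higher genes that kept their call with the correction, the median GC content was 58.4% and a GC box was found in 42.9% of the matched promoters. It was found in 2 of the 17 matched promoters of lower genes. A match describes letters in a window, not a bound site. The windows of 2 higher genes described below (*Tgfb1* and *Per1*) and 2 lower genes (*Myl2* and *Ngp*) are shown as examples that differ in base composition, not as typical of their groups, 5′ to 3′, with GC boxes in capitals. They are, in GRCm38.p6 and on the plus strand, chr7:25686752-25687001, chr11:69098699-69098948, chr5:122092474-122092723 and chr9:110419558-110419807. The *Per1* window lies inside the listed span of the gene (69095108 to 69109965), so it precedes a start site within that span. The other windows end at the base before the gene start.
Tgfb1: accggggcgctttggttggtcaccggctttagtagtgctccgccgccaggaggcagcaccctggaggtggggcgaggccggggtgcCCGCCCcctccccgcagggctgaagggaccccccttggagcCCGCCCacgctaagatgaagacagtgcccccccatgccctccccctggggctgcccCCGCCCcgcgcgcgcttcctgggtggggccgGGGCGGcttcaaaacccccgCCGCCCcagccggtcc
Per1: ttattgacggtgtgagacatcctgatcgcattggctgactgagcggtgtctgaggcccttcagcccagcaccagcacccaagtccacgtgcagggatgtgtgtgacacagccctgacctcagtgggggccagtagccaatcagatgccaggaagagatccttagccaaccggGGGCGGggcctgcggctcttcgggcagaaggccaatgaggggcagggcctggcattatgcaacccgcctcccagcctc
Myl2: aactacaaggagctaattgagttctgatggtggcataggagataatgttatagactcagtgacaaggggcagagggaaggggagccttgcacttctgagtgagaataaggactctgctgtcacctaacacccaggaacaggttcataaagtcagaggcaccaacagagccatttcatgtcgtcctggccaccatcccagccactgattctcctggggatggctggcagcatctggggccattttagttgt
Ngp: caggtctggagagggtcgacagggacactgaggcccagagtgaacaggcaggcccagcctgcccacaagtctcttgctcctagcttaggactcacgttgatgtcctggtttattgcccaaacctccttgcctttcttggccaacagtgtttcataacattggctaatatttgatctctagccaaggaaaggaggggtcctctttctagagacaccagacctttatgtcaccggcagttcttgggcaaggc
The *Tgfb1* window held 5 GC boxes in 75.2% GC and the *Per1* window 1 in 62.0%, while the *Myl2* (50.4%) and *Ngp* (52.4%) windows held 0.

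The higher genes changed little. Their median change was 1.27-fold and 68 of the 73 were under 1.5-fold. Among the 28 that kept their call with the correction were the following. *Tgfb1*, the cytokine TGF-β1 that restrains macrophage activation, read 107.6, 104.5 and 102.1 FPKM in WT and 125.9, 140.3 and 132.5 FPKM in DRD5-/- libraries. Its log2 difference was 0.34 ± 0.04 (SE, n = 3 per group; limma adjusted p = 0.000187), and 0.32 with the correction. It was the member called of 22 tested growth factors and receptors, whose median was 0.03. Over all tested genes 0.727% were called higher and 0.209% lower, and the list was not tested against these shares. *Tnfsf12*, which encodes the TNF family ligand TWEAK, read 19.2, 19.8 and 17.7 FPKM in WT and 25.1, 28.4 and 29.4 FPKM in DRD5-/- libraries (log2 difference 0.52 ± 0.06 SE, limma adjusted p = 7.78e-05). *Tgfb1* lost its call without DRD5-/- library 2 or 3 or WT library 2 or 3 (limma adjusted p of 0.00119 to 0.00169), while *Tnfsf12* kept its call without any 1 library. *Tnfsf12* overlaps *Tnfsfm13* and an antisense gene, so its reads could be shared.

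*Polr2a*, the largest subunit of RNA polymerase II, read 23.6, 23.5 and 24.5 FPKM in WT and 32.6, 32.8 and 34.1 FPKM in DRD5-/- libraries (log2 difference 0.46 ± 0.03 SE, limma adjusted p = 1.83e-06). It was 0.45 with the correction, and its GC content was 52.5%, in the second highest quintile. *Tmsb10*, a thymosin that binds actin monomers, was the most abundant of the higher genes, with 1589, 1672 and 1625 FPKM in WT and 2150, 2525 and 2602 FPKM in DRD5-/- libraries. Its log2 difference was 0.57 ± 0.07 (SE; limma adjusted p = 0.000223). *Mbd6*, a methyl-CpG-binding domain protein, differed by 0.45 and *Epn1*, an adaptor of clathrin endocytosis, by 0.43 on the log2 scale, and both kept their call with the correction. *Bri3* (0.44) kept its call too, and *Cd99* (0.53) is counted among those that kept it although no GC content was matched for it and its value was not corrected. *Sla2*, an adaptor that dampens antigen receptor signalling, was low in both groups, at 0.43, 0.43 and 0.54 FPKM in WT and 1.68, 1.32 and 1.27 FPKM in DRD5-/- libraries. The call of *Tmsb10* was lost without DRD5-/- library 2 or 3 or any 1 WT library (limma adjusted p of 0.00107 to 0.0021), that of *Sla2* without any 1 library but DRD5-/- library 3 (0.00111 to 0.00159), that of *Bri3* without DRD5-/- library 2 or 3 or WT library 3 (0.00107 to 0.00116) and that of *Cd99* without DRD5-/- library 2 or 3 (0.00161 to 0.002). *Polr2a*, *Mbd6* and *Epn1* kept theirs without any 1 library.

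**Figure D4:**
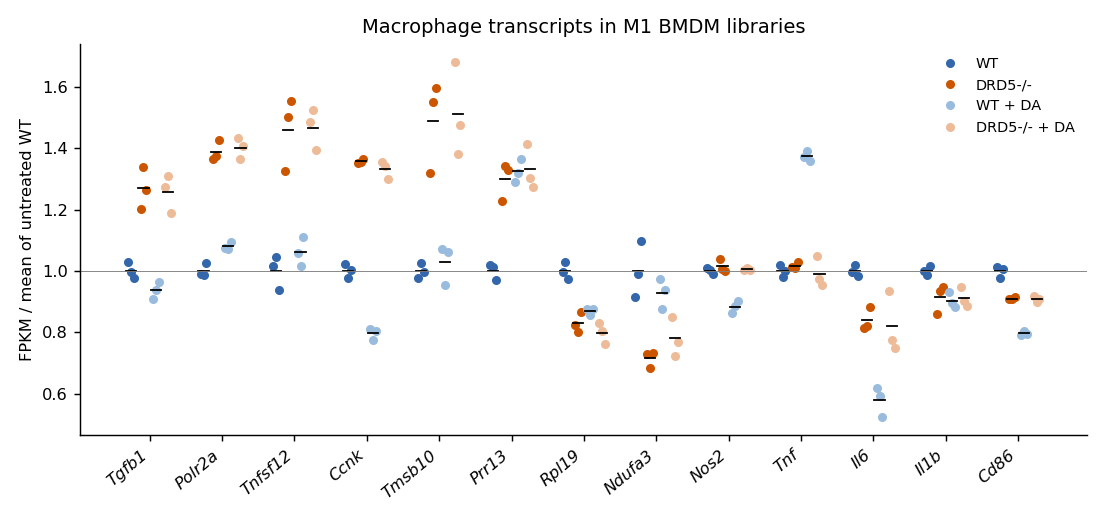
FPKM of 13 macrophage transcripts in each M1 library, divided by the mean of untreated WT (points, with the group mean as a black bar), for 4 groups of 3 libraries. *Tgfb1* to *Tmsb10* lie higher in DRD5-/- libraries with and without DA, whereas for *Prr13* the untreated WT libraries stand apart from the other 3 groups.

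Several of the largest rises sit in loci where reads may be shared. *Hist1h2ap*, 1 of 20 tested histone genes, read 1.61, 3.44 and 3.28 FPKM in WT and 8.5, 9.78 and 11.8 FPKM in DRD5-/- libraries, and near-identical histone copies may share its reads. *Gapdh-ps15*, a copy of *Gapdh* on the Y chromosome, read 36.4, 26.6 and 28.4 FPKM in WT and 111.9, 83.5 and 79.7 FPKM in DRD5-/- libraries, where reads of *Gapdh* itself may be counted. *Evi2*, which spans *Evi2a* and *Evi2b* on chromosome 11, read 11.6, 11.7 and 13.0 FPKM in WT and 23.95, 24.08 and 21.14 FPKM in DRD5-/- libraries. In the same place *Evi2b*, picked after its values were seen, was lower, at 40.9, 38.7 and 43.5 FPKM in WT and 28.1, 31.1 and 33.4 FPKM in DRD5-/- libraries, so the pair differed in opposite directions over shared sequence, and *Evi2b* lost its call with the correction (limma adjusted p = 0.00372). *Gm12657* (0.85 on the log2 scale) lies within *Plaa* and *Rbx1-ps* (0.52) is a pseudogene, and neither kept its call with the correction. *Gm12657* lost it without any 1 library (limma adjusted p of 0.00144 to 0.00563) and *Rbx1-ps* without any but WT library 1 (0.0012 to 0.00551).

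Members of the pathway that DRD5 uses gave 3 calls. Of 21 tested genes of cyclic AMP and protein kinase A signalling 1 was higher and 0 lower, of 15 tested genes that cyclic AMP induces 1 was higher, and of 18 tested genes of receptor desensitization and the phosphatase PP2A 1 was higher. Over all tested genes 0.727% were higher and 0.209% lower. The lists were not tested against these shares. Their medians were 0.01, 0.01 and −0.05 on the log2 scale. *Crtc2*, a coactivator of CREB, read 26.0, 25.2 and 26.6 FPKM in WT and 30.4, 35.0 and 32.1 FPKM in DRD5-/- libraries (log2 difference 0.31 ± 0.04 SE, limma adjusted p = 0.000481). *Per1*, a clock gene with CREB sites, read 12.2, 11.9 and 11.6 FPKM in WT and 15.6, 16.1 and 16.7 FPKM in DRD5-/- libraries (log2 difference 0.41 ± 0.05 SE, limma adjusted p = 0.000151). *Arrb2*, the β-arrestin that desensitizes receptors and scaffolds signalling, read 116.5, 113.1 and 116.5 FPKM in WT and 139.0, 139.8 and 142.4 FPKM in DRD5-/- libraries (log2 difference 0.28 ± 0.03 SE, limma adjusted p = 0.000151). All 3 were higher in every DRD5-/- library than in any WT library, as were 13.8% of tested genes and all 73 genes called higher, so this adds nothing to the call. After the GC correction they were at 0.27, 0.31 and 0.23, with limma adjusted p of 0.00155, 0.00102 and 0.000654. The first pair thus missed the p and *Arrb2* the fold of the cutoff. The call of *Crtc2* was lost without any 1 library but DRD5-/- library 1 (limma adjusted p of 0.00203 to 0.00342), that of *Per1* without DRD5-/- library 2 or 3 or WT library 3 (0.00119 to 0.00132) and that of *Arrb2* without DRD5-/- library 2 or 3 or WT library 2 (0.00111 to 0.00119). Of the enzymes and transporters that handle dopamine 3 were tested and 0 called, with *Slc18a1*, a vesicle transporter, at −0.03.

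The genes of M1 polarization showed no call. Of 19 tested M1 markers 0 were past the threshold, and their median difference was −0.04 on the log2 scale. With 0.727% of all tested genes higher and 0.209% lower, 0 calls among 19 genes is near the overall share. *Nos2*, the inducible nitric oxide synthase, read 1951, 1938 and 1917 FPKM in WT and 2007, 1945 and 1937 FPKM in DRD5-/- libraries. Its 95% interval for the change ran from 0.978-fold to 1.05-fold by limma. *Tnf* read 107.3, 103.3 and 105.3 FPKM in WT and 106.5, 106.3 and 108.4 FPKM in DRD5-/- libraries, with an interval of 0.97-fold to 1.07-fold. These intervals hold small changes and none as large as the 1.2-fold cutoff, but they measure only the spread between libraries. They do not cover the GC-linked shift or whatever else separates the libraries of the genotypes. For *Nos2* the log2 difference was 0.02, and −0.016 with the GC correction.

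*Il6* was lower in all DRD5-/- libraries, at 17.9, 18.1 and 19.4 FPKM against 22.0, 22.5 and 21.7 FPKM in WT, but did not pass (log2 difference −0.24 ± 0.07 SE, limma adjusted p = 0.0428). Neither did *Il1b*, at 282.9, 307.7 and 311.5 FPKM against 328.7, 324.4 and 334.4 FPKM (−0.13 ± 0.04 SE, limma adjusted p = 0.0355). *Il12b*, at 17.9, 18.7 and 19.1 FPKM against 19.9, 20.25 and 20.03 FPKM, gave an adjusted p of 0.0951 by limma. For these cytokines the DRD5-/- and WT libraries did not overlap, as for 17.2% of tested genes in that direction, and the interval of the change reached 0.761-fold for *Il6*, 0.865-fold for *Il1b* and 0.875-fold for *Il12b*. *Cd86*, a costimulatory receptor, read 94.9, 95.1 and 95.5 FPKM in DRD5-/- and 106.0, 102.3 and 105.4 FPKM in WT libraries (−0.13 ± 0.02 SE, limma adjusted p = 0.00287). With the GC correction the differences of *Il6*, *Il1b* and *Cd86* were −0.17, −0.08 and −0.08. *Ccl5*, a chemokine that attracts T cells, held the largest rise of the M1 list, at 5280, 5399 and 5449 FPKM in WT and 5494, 6006 and 5991 FPKM in DRD5-/- libraries (limma adjusted p = 0.17).

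Of 13 tested M2 markers 0 were called, near the share of all tested genes (0.727% higher, 0.209% lower), with a median of 0.03. *Arg1*, the arginase that competes with nitric oxide synthase for arginine, read 64.5, 64.7 and 64.0 FPKM in WT and 59.9, 61.9 and 62.6 FPKM in DRD5-/- libraries, and *Mrc1*, the mannose receptor, overlapped between the groups (limma adjusted p of 0.196 and 0.544). *Chil3*, a chitinase-like protein, was low, at 1.53, 1.59 and 1.45 FPKM in WT and 0.59, 0.91 and 0.84 FPKM in DRD5-/- libraries (−0.51 ± 0.12 SE, limma adjusted p = 0.0128).

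NF-κB genes gave few calls. Of 31 tested subunits and inhibitors 1 was higher, and of 137 tested NF-κB response genes 3 were higher, with 0 lower on either list and medians of −0.01 and 0.02. Over all tested genes 0.727% were higher and 0.209% lower, and neither list was tested against these shares. The caller on the first list was *Bcl3*, a nuclear IκB protein, at 60.4, 60.9 and 57.0 FPKM in WT and 72.0, 74.1 and 73.5 FPKM in DRD5-/- libraries (log2 difference 0.30 ± 0.03 SE, limma adjusted p = 0.000137). With a GC content of 62.7%, its difference was 0.16 after the correction. The other response genes called were *Per1* and *Phlda1*, the latter at 3.54, 3.93 and 4 FPKM in WT and 6.47, 6.19 and 5.65 FPKM in DRD5-/- libraries (0.56 ± 0.07 SE, limma adjusted p = 0.000151), and neither kept its call with the correction. *Bcl3* lost its call without DRD5-/- library 2 (limma adjusted p = 0.00119) and *Phlda1* without DRD5-/- library 1 or 2 or WT library 1 (0.001 to 0.00126). *Nfkbia*, which encodes the inhibitor IκBα, and *Tnfaip3*, the deubiquitinase A20, gave 0.05 ± 0.03 and −0.06 ± 0.04 (SE) on the log2 scale.

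Interferon response genes leaned lower without a call, where 0.727% of all tested genes were called higher and 0.209% lower. Of 65 tested genes 47 were below 0 and 18 above, with a median of −0.09, or −0.05 after the GC correction, and the median GC content of the list was 46.9%. The median of all tested genes was −0.013, and that of the GC quintile from 43.7% to 47.6% was −0.046. The lean of the list was not tested against these. The largest fall was that of *Eif2ak2*, the antiviral kinase PKR, at 43.9, 45.7 and 48.9 FPKM in WT and 41.0, 37.9 and 40.8 FPKM in DRD5-/- libraries (limma adjusted p = 0.0152). The largest rise was that of *Socs1*, an inhibitor of interferon signalling, at 321.8, 311.3 and 294.6 FPKM in WT and 364.9, 377.0 and 340.9 FPKM in DRD5-/- libraries (limma adjusted p = 0.00418). Of 22 antigen presentation genes *H2-Q7*, a nonclassical MHC class I gene with close paralogs that may share its reads, was higher, at 45.1, 45.6 and 47.3 FPKM in WT and 56.4, 55.3 and 56.4 FPKM in DRD5-/- libraries. Its call was lost with the GC correction (limma adjusted p = 0.0012) and without any 1 library (0.00188 to 0.00418).

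Other lists of macrophage function gave few calls or none, where 0.727% of all tested genes were called higher and 0.209% lower. Chemokines and their receptors (23 tested), Toll-like receptors and signalling (21), the inflammasome (12), glycolysis and hypoxia (30), antioxidant genes (26), heat shock chaperones (21), sterol synthesis (23), lipid efflux and fatty acids (18), proteasome (47), DNA replication and mitosis (31), immediate early genes (12), lysosome and phagocytosis (36), iron and heme (18), arginine and nitric oxide (17) and matrix and proteases (17) had 0 genes past the threshold. Their medians lay between −0.06 and 0.05 on the log2 scale. The lowest adjusted p among them was that of *Prdx1*, a peroxiredoxin that removes peroxide, at 4601, 4495 and 4653 FPKM in WT and 3848, 3852 and 3836 FPKM in DRD5-/- libraries. Its log2 difference of −0.25 ± 0.03 (SE; limma adjusted p = 7.78e-05) fell short of 1.2-fold. *Casp1*, the caspase that cleaves IL-1β, was at 280.0, 268.6 and 282.2 FPKM in WT and 253.1, 243.0 and 244.3 FPKM in DRD5-/- libraries (−0.17 ± 0.03 SE, limma adjusted p = 0.00166). Of 32 tested genes of the integrated stress and unfolded protein response 1 was higher, *Atf5*, a transcription factor of the mitochondrial stress response, at 16.3, 15.2 and 13.8 FPKM in WT and 19.3, 21.6 and 21.2 FPKM in DRD5-/- libraries. *Atf5* overlaps *Nup62* and lost its call with the correction, and also without DRD5-/- library 2 or 3 (limma adjusted p of 0.00152 and 0.00129).

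Outside the neutrophil, heart and lung lists 8 genes were lower, of which 3 kept their call with the correction, *Ndufa3* and *Rpl19* among them. *Ndufa3*, a subunit of respiratory complex I, read 75.01, 81.2 and 90.1 FPKM in WT and 59.95, 56.1 and 60.1 FPKM in DRD5-/- libraries (−0.47 ± 0.06 SE, limma adjusted p = 0.000359). *Uqcrb*, a subunit of complex III, read 113.4, 122.2 and 128.3 FPKM in WT and 85.1, 92.3 and 97.7 FPKM in DRD5-/- libraries (−0.40 ± 0.05 SE, limma adjusted p = 0.000213), and with a GC content of 40.4% it lost its call. They were 2 of 91 tested genes of the respiratory chain and ATP synthase, where 0.727% of all tested genes were called higher and 0.209% lower. Of the 91, 0 were called higher and the median was −0.03, but with the correction 1 was called higher and 1 lower. *Rpl19*, a protein of the large ribosomal subunit, read 492.5, 507.6 and 481.3 FPKM in WT and 407.1, 395.9 and 427.8 FPKM in DRD5-/- libraries (−0.27 ± 0.03 SE, limma adjusted p = 0.000234). Of 93 tested genes on the ribosomal protein list 2 were lower and 1 higher, the higher one being *Rps6kb2*, a kinase of ribosomal protein S6 that the name pattern of the list took in. With the correction 3 of the list were lower and 2 higher, and neither list was tested against the shares of all genes. Ribosomal protein genes have many pseudogene copies, so their reads may be shared. *1810022K09Rik*, at 38.3, 39.0 and 45.9 FPKM in WT and 27.6, 31.3 and 30.0 FPKM in DRD5-/- libraries, lost its call with the correction. Without 1 library, limma lost the call of *Ndufa3* in all cases but WT library 1 (adjusted p of 0.00147 to 0.0033), of *Uqcrb* for DRD5-/- library 2 and WT libraries 2 and 3 (0.00138 to 0.0017), of *Rpl19* for DRD5-/- libraries 1 and 2 and WT libraries 1 and 2 (0.00147 to 0.0021), of *Rps6kb2* for all but WT library 2 (0.0017 to 0.00554) and of *1810022K09Rik* for all 6 (0.00145 to 0.00473).

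The DA-treated M1 libraries are other libraries of the same genotypes, but their comparison is not independent of the untreated one. Both comparisons took the filter and the spread of each gene from all 12 M1 libraries, so genes with a small spread were favoured in both. The shares of tested genes given below are not matched for spread or GC content. With DA, DRD5-/- and WT BMDMs differed in 18.5% of tested genes. The highest GC quintile minus the lowest was −0.18, −0.13 and −0.09 in DA-treated WT and 0.09, 0.07 and 0.03 in DA-treated DRD5-/- libraries. Of the 73 higher genes 65 were called higher, against 12.6% of tested genes, and 72 were above 0, against 61.3%. In 70 of the 73 all DA-treated DRD5-/- libraries lay above all DA-treated WT libraries, against 36.8% of tested genes. The 13 neutrophil, heart and lung genes were called lower, a direction that the filter fixes for the 12 that passed only through WT libraries. *S100a9* read 21.0, 14.2 and 9.65 FPKM in DA-treated WT and 0.50, 0.71 and 0.61 FPKM in DA-treated DRD5-/- libraries, and *Myl2* read 4.77, 3.34 and 2.25 FPKM in the former and was listed at 0 in the latter. Of the 8 other lower genes 1 was called. *Wfdc17*, a secreted protease inhibitor-like protein picked after its values were seen, was at 480.0, 474.0 and 483.7 FPKM in untreated WT against 396.1, 401.5 and 341.7 FPKM in untreated DRD5-/- BMDMs, and 370.6, 365.7 and 372.4 FPKM in DA-treated WT, where every value was below those of untreated WT. *Wfdc17* lost its untreated call with the GC correction (limma adjusted p = 0.0217). *Prr13*, picked after its values were seen, was the reverse, at 264.9, 263.3 and 252.1 FPKM in untreated WT and between 319.4 and 368.1 FPKM in the other 9 libraries.

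In M2 BMDMs, stimulated with IL-4 and IL-13, the same genotypes were also compared. There 5.51% of tested genes were called, and 75.2% of those were lower in DRD5-/- BMDMs, against 22.3% in M1. Of the 72 higher M1 genes tested in M2, 39 were above 0 and 33 below, with a median of 0.01 on the log2 scale against 0.34 in M1, and 2 were called, *Cnbd2* higher and *Fxyd5* lower, both picked after their values were seen. *Fxyd5*, a regulator of the sodium pump, read 726.6, 714.2 and 725.9 FPKM in M1 WT and 829.5, 927.4 and 923.0 FPKM in M1 DRD5-/- libraries, while its M2 means were 869.9 and 694.4 FPKM. The difference between the M1 and the M2 effect was itself tested in 1 fit of all 24 libraries, which gave 4.82% of 11148 genes. The called M1 genes were picked by their M1 difference, which enters this test. The sign of their result and a share above 4.82% are therefore largely set by that choice, and the values are without the GC correction. Of the 73 higher genes, 40 passed, with the M1 effect above the M2 effect for 39, and of the 17 lower genes tested 12 passed. Of these 12, 8 are neutrophil, heart or lung genes at or near 0 in untreated M2 BMDMs of both genotypes, where no fall could be measured, so their difference largely restates the M1 value. *Polr2a* had a difference of effects of 0.56 ± 0.05 (SE; limma adjusted p = 4.91e-08) and *Tmsb10* of 0.63 ± 0.09. For *Crtc2*, *Per1* and *Tgfb1* the difference did not pass (limma adjusted p of 0.00504, 0.00533 and 0.00374), although none of them was called in M2. The heart and muscle list summed to 18.1 to 19.0 FPKM in M2 WT and 14.2 to 16.8 FPKM in M2 DRD5-/- libraries over the 45 genes with values there, *Myl2* did not exceed 0.06 FPKM in any M2 library, and *Ngp* was listed at 0 in the 3 M2 WT libraries. The genotype difference in M2 followed GC content less closely (Spearman's rho = 0.225 across genes).

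**Figure D5:**
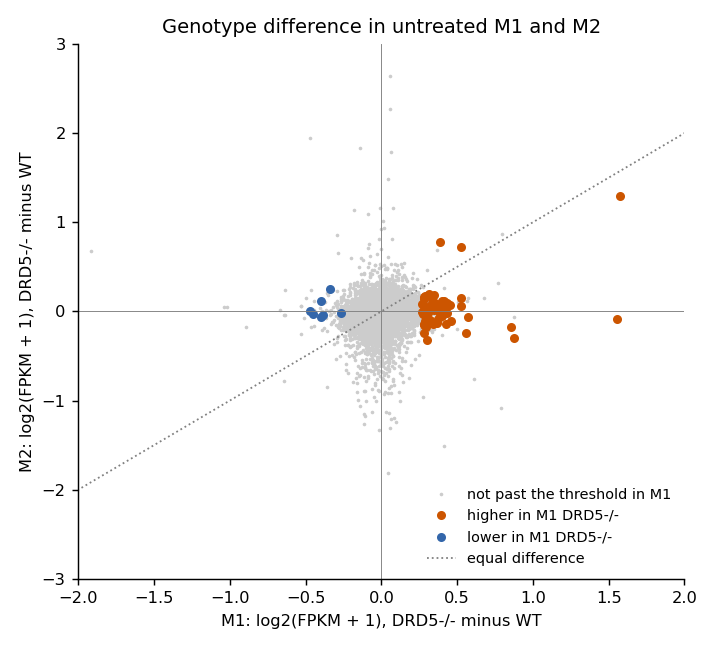
Log2 difference (DRD5-/- minus WT, log2(FPKM + 1)) in untreated M2 against untreated M1 BMDMs for genes tested in both, with genes called in M1 in colour and a dotted line where the differences are equal. The 72 genes higher in M1 scatter around 0 in M2, with 39 above and 33 below.

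The neighbourhood of the deleted gene held no call. Within 5 Mb of *Drd5* 43 genes were tested, with log2 differences between −0.12 and 0.24 and a lowest limma adjusted p of 0.00282. With 0.727% of all tested genes higher and 0.209% lower, 0 calls among 43 genes is near the overall share. *Zbtb49*, *Lyar* and *Tmem128* on the side before the gene gave −0.10, −0.03 and 0.11, and *Slc2a9*, *Wdr1* and *Rab28* on the other side −0.09, 0.05 and 0.15. The calls were spread over 19 of 21 chromosomes, with none on chromosomes 14 and 18 and the most on chromosome 11, where 14 genes were higher and 4 lower of 839 tested (2.15%).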

How the data were processed

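RNA-seq of BMDMs was deposited as FPKM with 2 decimals, 1 file per library. The authors made these FPKM from BGISEQ-500 reads, aligned with HISAT2 to GRCm38.p5 in the methods, while the submitters' processing notes name Bowtie2 2.2.5 and GRCm38.p6. Read counts were not used here, so depth is unknown: low values shared no common step between libraries (the commonest ratio held 2.63% of 3307 genes). From these values log2(FPKM + 1) of the 12 M1 libraries was fitted with limma 3.58.1 (R 4.3.3), with 4 group means, an intensity trend and Benjamini-Hochberg adjustment. Fold changes are on that scale and understate those of low genes. M2 libraries were fitted likewise, and the difference between stimuli across 24 libraries within their own tables. The GC correction used lowess (span 0.3). Named genes were the 15 largest rises and falls without overlap, chosen markers and receptors, called members or the extremes of 47 lists, and neighbours of *Drd5*. The members and lists were chosen with earlier results of these data known, and a lung list was added after its values were seen. Alternatives were another pseudocount, no filter, median-of-ratios and quantile scaling, the GC correction, a muscle score covariate, no trend, the compared groups alone, other thresholds, a replicate block and leaving out each library. On data simulated for the M1 comparison (9953 genes), 71% of genes changed by 0.4 and 96% of those changed by 1 (log2) were called, with 0 false calls. The simulated noise was independent between libraries, without a GC-linked shift between genotypes, and genes of low level were not changed. The simulation therefore checks the fit only, and its 0 false calls do not cover such shifts in the real libraries. Gene positions and promoters are from RefSeq (GRCm38.p6), GC content from GENCODE M21. Python 3.11.15 with pandas 2.3.3, numpy 2.4.6, scipy 1.17.1 and matplotlib 3.10.9 was used. Some genes that the rule names are not reported here.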

Additional observations from a re-analysis of the deposited data

Results flagged for a closer look

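For these genes called in untreated M1 BMDMs, the genotype effect in M1 differed from that in M2 by the limma test across 24 libraries (adjusted p under 0.001 and at least 1.2-fold), and each value is the M1 log2 difference minus the M2 log2 difference. Since the genes were picked by their M1 difference, its sign and size are largely carried into each value, which is without the GC correction. Among the genes higher in M1 DRD5-/- BMDMs it was 1.64 for *Gapdh-ps15*, 0.80 for *Phlda1*, 0.70 for *Sla2*, 0.63 for *Tmsb10*, 0.56 for *Polr2a*, 0.47 for *Tnfsf12*, 0.46 for *Atf5*, and 0.38 for both *Mbd6* and *Epn1*. The neutrophil, heart and lung genes were at or near 0 FPKM in untreated M2 BMDMs of both genotypes (0.69 FPKM at most), so their values largely restate the M1 difference. For these genes it was −3.15 for *Ngp*, −2.42 for *Myl2*, −1.76 for *Scgb1a1*, −1.71 for *Mb*, −1.66 for *Ltf*, −1.52 for *Actc1*, −1.49 for *Tnnt2* and −1.18 for *Camp*. For *Uqcrb* it was −0.34. *S100a9*, *Myl3*, *Retnlg* and *Myoz2* could not be fitted in this test.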

How the results depend on the processing

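No counts, depths or separate cultures are known, so the limit on each value is the spread between libraries, pooled over the groups of its fit. With the compared groups alone 63 M1 genes were called. The 94 called M1 genes were 43 with no filter, 50 with the GC correction, 36 with no intensity trend, 0 with the muscle score as a covariate (which does not overlap between genotypes; by limma 399 genes then had an unadjusted p under 0.05), 202 at an adjusted p of 0.05, 13 at 2-fold (2 higher, 11 lower) and 36 to 71 with 1 library left out. With a replicate block they were 74, and the numbers did not pair the libraries (residual r −0.05, 0.10 and −0.004). The 592 called M2 genes were 205 with the muscle covariate, 895 at an adjusted p of 0.05 and 36 at 2-fold, and 475 to 510 with 1 library left out. The 537 differing between stimuli were 1079 at 0.05 and 42 at 2-fold. Spearman's correlation with GC content was 0.421 to 0.524 with 1 library left out. Counts under the other alternatives stayed within 1.5 times, but higher genes were 24.8% of the M2 calls and 37.7%, 35.7% and 35.4% with median-of-ratios scaling, quantile normalization and the GC correction. Of the named genes, *Gm12657*, *Mb* and *Retnlg* were called ones whose sign turned. The causes were not tested. The sign turned with the GC correction for *Nos2* (−0.016), *Mrc1* (0.005), *Smtn* (−0.008), *Vwf* (−0.008), *Pf4* (0.047) and *Gsdmd* (−0.001). The sign turned with quantile normalization for *Nos2* (−0.006) and *Runx2* (0.001). The sign turned with the muscle covariate for *Gm12657* (−0.028), *Mb* (0.313), *Retnlg* (0.181), *Nos2* (−0.123), *Il6* (0.218), *Il1b* (0.051), *Mrc1* (0.023), *Nfkbia* (−0.059), *Smtn* (−0.063), *Col1a2* (0.145), *Vwf* (−0.219), *Flt1* (0.339), *Lck* (0.073), *Hdc* (−0.139), *Ppbp* (−0.116), *Slc18a1* (0.12), *Socs1* (−0.084), *Eif2ak2* (0.077), *Ticam1* (−0.057), *Cryab* (0.404), *Hsd17b7* (0.072), *Nr1h2* (−0.028), *Abca1* (0.026), *Mki67* (0.122), *Jund* (−0.18), *Btg2* (0.214), *Spp1* (0.007), *Lyar* (0.211), *Tmem128* (−0.28), *Wdr1* (−0.055) and *Rab28* (−0.107). With 1 library left out, values on both sides of 0 were found for *Cd28* (−0.058 to 0.054), *Col1a2* (−0.086 to 0.009), *Fabp4* (−0.057 to 0.071), *Klrk1* (−0.101 to 0.169), *Lyar* (−0.096 to 0.087), *Mrc1* (−0.104 to 0.004), *Pf4* (−0.064 to 0.043), *Runx2* (−0.037 to 0.024), *Slc18a1* (−0.069 to 0.016) and *Vwf* (−0.021 to 0.067).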
